A study of Mus musculus with 43 samples.

Results

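The proximal tubule is the first stretch of the nephron after the glomerulus, and S1 and S3 are its ends: S1 begins at the glomerulus and S3, the straight end, runs into the outer medulla. Here gene expression at these ends was compared in kidneys of female C57BL/6 mice aged 6 to 8 weeks, for which the labels name no treatment. Each RNA sample was made from 2 to 5 tubules. The S1 group had 6 libraries and the S3 group had 7, and the deposited table holds 1 pooled TPM (a level scaled for transcript length and for the library's total) per gene and segment. All values below are therefore single values with no SD, no n of their own and no test, and the number of reads behind each value is unknown, since TPM does not carry it. The titles carry 2 different numbers in S1 and 4 in S3, of which 2 are in common; the labels do not say whether a number stands for an animal.

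A gene was compared if it had at least 1 TPM at either end. This took 13978 of the 54532 genes in the table, against 16053 with at least 1 TPM in any of the 3 segments. Differences are S1 minus S3 on the scale of log2(TPM + 1), which understates the change of genes with low values, and a gene is called higher at an end when the difference is at least 1, that is 2-fold. A plain ratio of TPM is printed only for genes that reach 1 TPM at both ends. The libraries are bulk samples, so fewer cells of a type and less RNA per cell cannot be told apart.

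As background, cells of S1 take back most of the filtered glucose, amino acids, phosphate and bicarbonate through sodium-coupled transporters and recover filtered protein by endocytosis. Cells of S3 meet what is left over, work at lower oxygen, secrete organic ions and carry a high load of glutathione turnover. S3 of the rodent kidney is also the stretch known for its sensitivity to sex hormones.

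The labels were checked against 5 marker genes. Gatm, the first enzyme of creatine synthesis (chromosome 2, 122594473 to 122611277, GRCm38.p6), had 4072 TPM in S1 against 1.0 in S3. Spp2, a secreted phosphoprotein, was at 4627 and 3.7 TPM, and Slc34a1, the main renal sodium-phosphate cotransporter (chromosome 13, 55399622 to 55414695), at 10241 and 17.0 TPM. Akr1c18, a reductase that inactivates progesterone (chromosome 13, 4132615 to 4150646), had 1.6 TPM in S1 against 4895 in S3, and Kcnk1, a potassium channel subunit with 2 pore domains, at 0.5 and 849.7 TPM. Each of the 5 was thus high at the end it marks and low at the other, and the labels of both groups match these markers.

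The RefSeq promoters of 3 of the 5 markers are printed here, 2 of genes high in S1 and 1 of a gene high in S3. All 5 markers differ by over 9 log2 units between the ends. Each sequence is the 250 bases before the tabled start on the gene's own strand, 5′ to 3′, in build GRCm38.p6, and capitals mark the short motifs found. For Slc34a1 the tabled start lies inside the gene, which begins at 55399622, so the end of its window overlaps the gene.
Gatm, chr2:122611278-122611527, minus strand: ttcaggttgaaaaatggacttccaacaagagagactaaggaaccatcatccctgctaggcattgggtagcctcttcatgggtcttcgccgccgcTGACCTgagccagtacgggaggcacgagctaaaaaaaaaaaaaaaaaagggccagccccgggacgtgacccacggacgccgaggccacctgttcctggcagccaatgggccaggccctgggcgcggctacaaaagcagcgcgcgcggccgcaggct
Slc34a1, chr13:55399398-55399647, plus strand: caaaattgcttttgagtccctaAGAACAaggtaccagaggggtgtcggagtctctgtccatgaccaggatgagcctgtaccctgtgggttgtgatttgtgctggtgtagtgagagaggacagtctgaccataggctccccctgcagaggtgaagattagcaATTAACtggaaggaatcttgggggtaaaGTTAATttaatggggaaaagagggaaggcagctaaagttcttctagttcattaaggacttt
Akr1c18, chr13:4150647-4150896, minus strand: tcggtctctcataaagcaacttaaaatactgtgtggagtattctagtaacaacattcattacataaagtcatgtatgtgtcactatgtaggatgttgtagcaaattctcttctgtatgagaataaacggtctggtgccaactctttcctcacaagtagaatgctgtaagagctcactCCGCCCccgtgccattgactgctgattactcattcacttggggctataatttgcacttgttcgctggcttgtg
The search covered 10 motifs on both strands. The Slc34a1 window held the HNF1 half-site GTTAAT at 89 and at 61 bases before the start, and the steroid receptor half-site AGAACA at 228. The Gatm window held the nuclear receptor half-site AGGTCA at 156 bases before the start, and the Akr1c18 window held the Sp1 box GGGCGG at 73. Of the markers not printed, Spp2 held AGAACA at 181 and the large MAF half-site TGCTGAC at 40, which 3.81% of all promoters held. The window of Kcnk1, high in S3, held none of the motifs. Over all 32851 promoters in the RefSeq table, 6.43% held GTTAAT in this window, 16.1% AGAACA, 14.0% AGGTCA and 32.7% GGGCGG, so the last 3 are common. The Gatm window was 59.2% GC with 17 CpG, against 46.4% with 1 for Slc34a1 and 41.6% with 5 for Akr1c18, and the median over all promoters was 52.4% GC. A match of letters is a description and not a binding site.

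Markers of other cells were few but not equal between the ends. All 10 endothelial genes compared had the higher value in S3, 7 of them at least 2-fold, with a median difference of -1.46, and their sum was 76.1 TPM in S1 and 283 in S3. Plvap, a protein of fenestrated capillaries, was the most abundant at 29.6 and 136.4 TPM, while Cdh5, the endothelial cadherin, was at 0.5 and 1.4. The 10 stromal and mural markers stood under 1 TPM at both ends, and the podocyte gene Nphs1 was at 0.1 TPM or less. Among immune genes Ptprc, the common leukocyte antigen, was at 0.5 and 0.4 TPM, but Csf1r, a macrophage receptor, was at 0.5 and 46.9. Thin limb genes were mixed. Cryab, a small heat shock protein, was at 19.1 and 1040 TPM and Aqp1, also listed for the proximal tubule, at 33.0 and 561. Akr1b3 was the reverse, at 20.4 and 1.1 TPM, and Bst1, Fst, Slc14a2 and Slc44a5 were at 0.5 TPM or less. Of the thick limb, Umod, its secreted protein, was at 0.2 and 29.1 TPM, while Slc12a1, its salt cotransporter, was at 0.4 and 1.0. Of the collecting duct, Aqp3 was at 28.3 and 0.1 TPM and Fxyd4 at 32.3 and 0.9, with Aqp2 at 0.1 and 0.2. The part that such cells have in the differences below was not tested.

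**Figure D1:**
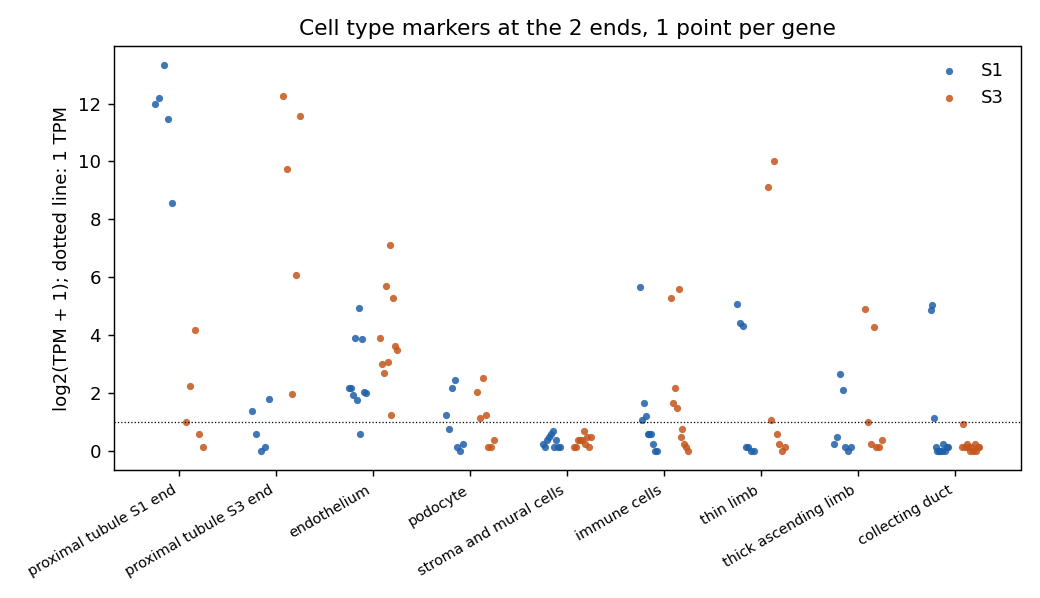
Levels of cell type markers in S1 (blue) and S3 (orange) on the log2(TPM + 1) scale, with 1 point per gene and the dotted line at 1 TPM. The proximal tubule markers separate the ends, the endothelial points sit higher in S3, and stromal markers are under the line at both ends.

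At least 2-fold higher in S1 were 1661 genes, 11.9% of those compared, and 2089 genes, 14.9%, were at least 2-fold higher in S3. The other 10228 genes, 73.2%, differed by less. The median difference of all genes compared was 0.00, with quartiles of -0.58 and 0.51. The called genes carried much of the RNA. Those higher in S1 took 37.3% of the S1 total and 6.40% of the S3 total, and those higher in S3 took 33.7% of the S3 total and 4.13% of the S1 total. The most abundant genes were called most often: among the 1666 genes with at least 100 TPM at 1 end, 17.6% were higher in S1 and 20% in S3, against 11.7% and 12.7% of the 5668 genes from 10 to 100 TPM and 10.6% and 15.6% of the 6644 genes under 10 TPM, so the share did not rise steadily with the level in S3. Low genes nevertheless made up much of the counts, since 42.3% of the genes higher in S1 and 49.6% of those higher in S3 stayed under 10 TPM.

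**Figure D2:**
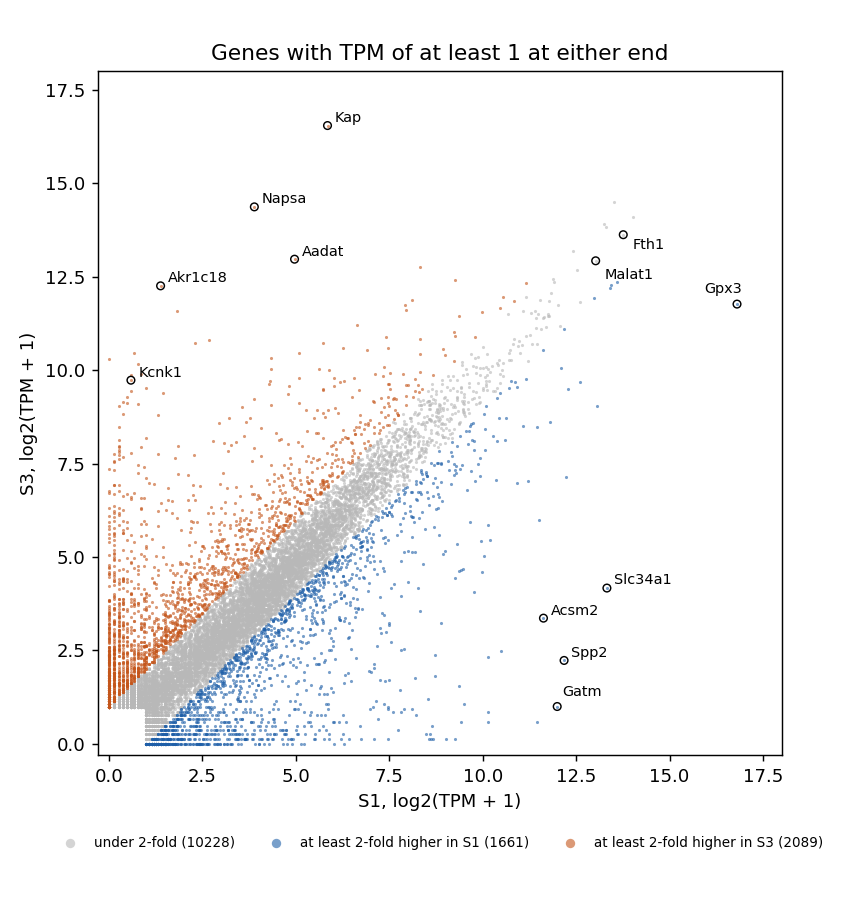
S1 level against S3 level, both as log2(TPM + 1), for the 13978 genes compared, with 1661 called higher in S1 (blue), 2089 called higher in S3 (orange) and 10228 under 2-fold (grey). Circled genes are named, and Gatm, Spp2 and Slc34a1 lie far below the diagonal while Akr1c18, Kcnk1, Kap and Napsa lie far above it.

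Some genes were close to absent from 1 end. With at least 10 TPM at 1 end and under 1 TPM at the other there were 151 genes for S1, which is 2.33% of the genes with 10 TPM there, and 204 for S3, which is 3.18%. Beside the markers, S1 held Nox4, the NADPH oxidase of the tubule, at 383.8 TPM against 0.2 in S3, Folh1, a glutamate carboxypeptidase of the brush border, at 177 against 0.1, and Npl, which splits sialic acid, at 273.6 against 0.9. S3 held Mep1b, the beta subunit of the protease meprin, at 530.7 TPM against 0.2 in S1, Bdh1, which interconverts the ketone bodies, at 561 against 0.4, and Scd1, the desaturase that makes monounsaturated fatty acids, at 453.9 against 0.3.

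Other genes with great differences were secreted proteins and enzymes. Gc, the vitamin D-binding protein of plasma, was 656-fold higher in S1 (721 and 1.1 TPM), and Igfbp4, a binding protein of insulin-like growth factors, 314-fold (1446 and 4.6 TPM). Enpp2, which makes lysophosphatidic acid, was 344-fold higher (653 and 1.9 TPM) and Acsm2, a medium-chain acyl-CoA synthetase, 339-fold (3156 and 9.3 TPM). Toward S3, Kng2, a kininogen, was 735-fold higher (1.0 and 734.6 TPM) and Capg, an actin-capping protein, 391-fold (1.7 and 664 TPM). Aadat, an aminotransferase of kynurenine and alpha-aminoadipate, was 266-fold higher (30.2 and 8025 TPM), and Apela, a small peptide ligand of the apelin receptor, was at 0.2 and 251 TPM. Guca2b, the natriuretic peptide uroguanylin, was 21.5-fold higher in S3, yet its 321.5 TPM in S1 is itself a high level.

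The 10 most abundant genes of each end had 5 in common, the top 100 had 61 and the top 500 had 321. Genes held alike included the ferritin heavy chain Fth1 (13870 TPM in S1 and 12640 in S3), the nuclear noncoding RNA Malat1 (8313 and 7790), the trypsin inhibitor Spink1 (5921 and 6585) and Pck1, the cytosolic PEP carboxykinase (2105 and 1638). Miox, the kidney enzyme that opens inositol, was abundant at both ends but 16.1-fold higher in S1 (8516 and 528.6 TPM), and Slc27a2, a fatty acid transporter and very long-chain acyl-CoA synthetase, was 8.96-fold higher in S3 (611 and 5476 TPM).

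Apical sodium-coupled transporters were divided between the ends. Of 28 compared, 9 were higher in S1, 11 in S3 and 8 differed less than 2-fold; the median difference was -0.67 and the mean 0.12, so they differ in sign. Over all genes compared the shares were 11.9% and 14.9%, with a median of 0.00. The S1 side held Slc34a3, the second phosphate cotransporter, at 404 TPM in S1 against 0.1 in S3, Slc5a12, a lactate transporter, at 376 and 0.1, and Slc9a3, the sodium-proton exchanger NHE3, at 52.5 and 0.1. The S3 side held Slc5a10, a mannose and fructose cotransporter, at 0.4 and 623 TPM, Slc10a2, the bile acid transporter, at 0.4 and 101 TPM, and Slc5a6, the transporter of biotin and pantothenate, at 15.6 and 206 TPM. Slc9a8, another sodium-proton exchanger, had 18.7 TPM in S1 against 842.5 in S3, the reverse of Slc9a3. Slc23a1, for vitamin C, was at 103 and 446.7 TPM, while Slc6a8, for creatine, was at 70.9 and 15.2. Slc6a20b was alike at 93.7 and 86.9 TPM, while its relative Slc6a20a was 5.44-fold higher in S3 (3.9 and 21.2 TPM).

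Of 19 other apical carriers, 7 were higher in S3 and 1, Slc7a9, in S1, with a median of -0.67. Slc22a13, an organic anion exchanger, had 0.5 TPM in S1 against 697.5 in S3, Slc15a2, the high-affinity peptide transporter, at 51.5 and 724, and Slc39a8, an importer of zinc and manganese, at 3.3 and 90.7. Slc3a1, the heavy chain of the cystine transporter, was 3.14-fold higher in S3 (316.6 and 994 TPM) while its light chain Slc7a9 was 2.61-fold higher in S1 (470.6 and 180.5 TPM), so the partners of this dimer went opposite ways. Folr1, the folate receptor (1020 and 709 TPM), and Slc2a5, the fructose carrier (115 and 104 TPM), differed less than 2-fold.

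Basolateral carriers lay toward S1: 14 of 23 were higher there and 5 in S3, with a median of 2.04. They included the bicarbonate exit carrier Slc4a4 (686 and 24.0 TPM), the amino acid exchanger chains Slc7a7, Slc7a8 and Slc3a2 (664, 471 and 1161 TPM in S1 against 23.7, 8.5 and 42.6 in S3) and the sulfate carrier Slc26a1 (163.5 and 1.1 TPM). Slc40a1, the iron exporter ferroportin, was at 51.4 and 0.4 TPM and Slc16a1, a lactate carrier, at 32.4 and 0.2. Against this, Slc38a3, which takes up glutamine from blood, had 0.3 TPM in S1 against 98.7 in S3, and Slc6a13, a carrier of betaine and GABA, at 38.5 and 328. Of the sodium pump, the beta subunit Atp1b1 was even, at 447 and 464 TPM, and the regulator Fxyd2 was 2.04-fold higher in S1 (8026.5 and 3937 TPM), a call with a difference of 1.03 that became 0.97 with median-of-ratios scaling and 0.75 with quantile normalization.

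Of 29 organic ion transporters, 9 were higher in S1 and 13 in S3, with a median of -0.05. Slc22a8, the anion carrier OAT3, had 297 TPM in S1 against 0.7 in S3, and the export pumps Abcc2 and Abcc4 were at 65.6 and 19.5 TPM in S1 against 3.8 and 0.4. Slc22a7, the anion carrier OAT2, was at 0.7 and 1155 TPM, Abcc3, a basolateral export pump, at 0.3 and 203, and the cation carrier Slc22a2 at 32.5 and 268.5. Slc22a18 (1022 and 1059 TPM) and the cation exchanger Slc47a1 (317 and 211 TPM) were held alike. Slc22a8 and Abcc4 in S1, and Slc22a7 and Abcc3 in S3, thus had under 1 TPM at the other end, and Abcc2 under 4 TPM. This did not hold for the whole list. The export pump Abcg2 (581.4 and 292.5 TPM) and Slc17a1 (387.9 and 634.4) were abundant at both ends and differed less than 2-fold.

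Water channels and tight junction genes lay toward S3. Of 23 channel, water and junction genes, 7 were higher in S3 and 1, Kcnk5, in S1, and the median over the list was -0.22. Kcnk5, a potassium channel, stood at the edge of the call, with a difference of 1.04 (55.1 and 26.2 TPM) that became 0.99 with median-of-ratios scaling. Aqp1, the main water channel, was 17.0-fold higher in S3 (33.0 and 561 TPM), and Aqp4 was at 0.0 and 67.9. The claudins Cldn3 (0.0 and 104.5 TPM), Cldn7 (2.2 and 89.3) and Cldn19 (0.0 and 60.5) had little value in S1, while Cldn2, which makes the junction leaky to sodium, was alike (260 and 294 TPM). Ocln and Tjp1, also tight junction genes, differed less than 2-fold as well. The carbonic anhydrase and acid-handling list was the reverse, with 6 of 10 higher in S1, none in S3 and a median of 1.83. Car2, the cytosolic enzyme, was at 1133 and 57.4 TPM, Car12 at 211 and 0.3, Car14 at 402 and 0.4 and Car4 at 38.7 and 0.5, the last 3 being membrane enzymes.

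Surface enzymes of the brush border were called more often than its scaffold genes. Of 19 microvillus genes, 14 differed less than 2-fold, near the 73.2% of all genes compared. Among the 14 were villin (Vil1, 92.1 and 76.6 TPM), ezrin (Ezr, 286 and 271) and the PDZ protein Pdzk1 (1482 and 1165). Its partner Pdzk1ip1 was 9.02-fold higher in S1 (3543 and 393 TPM). Of 18 surface hydrolases, 15 were called, 6 higher in S1 and 9 in S3, with a median of -0.97 and a mean of 0.13, which differ in sign. Alpl, the alkaline phosphatase, was at 1129 and 0.8 TPM, Dpep1, a dipeptidase, at 422 and 2.5, and Enpep, the aminopeptidase that trims angiotensin II, at 55.6 and 1.5. In S3 stood Ggt1, the gamma-glutamyltransferase (75.1 and 1539 TPM), Mep1a, the alpha subunit of meprin (47.7 and 1042), neprilysin (Mme, 3.7 and 120.1) and the angiotensin-converting enzyme (Ace, 0.3 and 76.2). Dpp4, another peptidase (52.2 and 37.2 TPM), was under 2-fold. Angiotensin-cutting enzymes were thus found at both ends, Enpep in S1 and Ace and Mme in S3.

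Of 30 genes of endocytosis and the lysosome, 15 were higher in S1 and 3 in S3, with a median of 0.95. The receptors megalin (Lrp2, 143 TPM in S1 and 259 in S3) and cubilin (Cubn, 46.0 and 59.7) differed less than 2-fold, both with the higher value in S3. Amn, from the same list, was 2.13-fold higher in S1 (242.9 and 113.8 TPM), and the adaptor Dab2 3.76-fold (436 and 116 TPM). Lysosomal proteases followed Dab2, with cathepsin B (Ctsb) at 1322 and 274.6 TPM, cathepsin L (Ctsl) at 1566 and 421 and legumain (Lgmn) at 930.4 and 179.7. The exceptions were Napsa, an aspartic protease (13.8 and 21179 TPM), cathepsin H (Ctsh, 308 and 783 TPM) and acid ceramidase (Asah1, 40.1 and 125 TPM), all higher in S3. Because Napsa is so abundant, the summed TPM of the list was 11415 in S1 and 27086 in S3, the reverse of its counts. Among 18 subunits of the vacuolar proton pump, 6 were higher in S1 and none in S3, for example Atp6v1b2 (447 and 102.5 TPM).

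The list of glucose synthesis, fructose and related enzymes lay toward S1, with 12 of 20 genes higher there, 4 in S3 and a median of 1.22. Slc37a4, the glucose-6-phosphate translocase, was 5.26-fold higher (827 and 157 TPM), Pcx, pyruvate carboxylase, 4.23-fold (281.8 and 66.6 TPM) and Sord, sorbitol dehydrogenase, 5.56-fold (1548 and 278 TPM). Fbp1, the bisphosphatase, was 2.12-fold higher. The PEP carboxykinases Pck1 (2105 and 1638 TPM) and Pck2 (10.2 and 10.4) differed less than 2-fold. The 4 genes higher in S3 were Khk, fructokinase (509 and 1365 TPM), Gk, glycerol kinase (148 and 317), Ldhd, which oxidises D-lactate (175 and 449), and Gpt, the cytosolic alanine aminotransferase (4.6 and 38.4). They handle fructose, glycerol, D-lactate and alanine as entry substrates.

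Of 23 genes of glycolysis and glycogen, 9 were higher in S1 and 4 in S3, with a median of 0.75. Among the enzymes of reversible steps, Gapdh (1922 and 745 TPM) and Eno1 (571 and 226) were higher in S1, while Pgk1 (111.0 and 64.1) and Pgam1 (64.8 and 75.6) differed less than 2-fold. The 4 higher in S3 were hexokinase 1 (Hk1, 0.5 and 15 TPM), platelet-type phosphofructokinase (Pfkp, 9.5 and 62.0), muscle-type pyruvate kinase (Pkm, 1.9 and 75.9) and liver glycogen phosphorylase (Pygl, 0.1 and 20.3). The first 3 of these catalyse the irreversible steps of glycolysis. Of other genes for these steps, Pfkm was 7.03-fold higher in S1 (23.9 and 3.4 TPM). Pfkl (29.2 and 19.3) and Pklr (15.9 and 8.6) differed less than 2-fold. Of 32 genes of the citrate cycle and pyruvate, 12 were higher in S1 and 2 in S3, with a median of 0.73. Idh1, the cytosolic NADP isocitrate dehydrogenase, was 43.9-fold higher in S1 (1014 and 23.1 TPM), Suclg2, the GTP-forming succinyl-CoA ligase subunit, 10.7-fold (195 and 18.3) and Acss1, which activates acetate in mitochondria, stood at 682 and 0.5. The 2 genes higher in S3 both inhibit pyruvate dehydrogenase: Pdk3 (24.2 and 122 TPM) and Pdk4 (1.4 and 18.5). Their relative Pdk2 went the other way (480.0 and 89.2 TPM).

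Fatty acid oxidation had no common direction. Of 21 mitochondrial genes, 5 were higher in S1, 4 in S3 and 12 under 2-fold, with a median of 0.15. Acadm, the medium-chain dehydrogenase, was 13.7-fold higher in S3 (276 and 3784 TPM), and Acaa2, the thiolase of the same spiral, 284-fold higher in S1 (1138 and 4.0 TPM). Cpt1a, the gatekeeper of entry, was 2.79-fold higher in S1 (118 and 42.5 TPM), while the trifunctional subunit Hadha (71.9 and 64.6 TPM) and Cpt2 (129 and 146.5) were under 2-fold. Of 17 genes of ketone bodies and acyl-CoA, 4 were higher in S1 and 6 in S3, with a median of -0.23; Acot1, an acyl-CoA thioesterase, was at 13.1 and 190.1 TPM and Acsl5, a long-chain synthetase, at 5.3 and 71.9. Of 23 peroxisomal genes, 4 were higher in S1 and 5 in S3, with a median of 0.26 and a mean of -0.19, which differ in sign. Over all genes compared, 11.9% were higher in S1 and 14.9% in S3, so these counts set the peroxisomal list little apart. Ehhadh, the bifunctional enzyme, was 10.7-fold higher in S3 (77.7 and 831 TPM), Acox2, the branched-chain oxidase, 46.7-fold (5.9 and 275.7) and Hao2, a hydroxyacid oxidase, 11.2-fold (168 and 1890). Phyh, which starts alpha-oxidation, was 3.40-fold higher in S1 (543 and 159.7 TPM).

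Amino acid enzymes were divided: of 48 compared, 22 were higher in S1, 14 in S3 and 12 under 2-fold, with a median of 0.07. In S1 stood the hydroxyproline dehydrogenase Prodh2 (359 and 0.2 TPM), the serine synthesis enzyme Psat1 (133 and 1.0) with its neighbours in the pathway Phgdh (98.3 and 13.8) and Psph (76.9 and 19.4), and Acmsd, which steers tryptophan carbon away from NAD (223 and 4.7). In S3 stood Cdo1, cysteine dioxygenase (1.0 and 288.5 TPM), Csad, which makes hypotaurine (101 and 705), Cth, cystathionine gamma-lyase (54.0 and 425.5), and Mat2a, which makes S-adenosylmethionine (162 and 1087). Arg2, the mitochondrial arginase, was at 0.2 and 277.9 TPM and Odc1, which uses its product ornithine, was the reverse, at 417 and 54.5. Glud1, glutamate dehydrogenase (133.9 and 128.5), and Glul, glutamine synthetase (457.5 and 433), were alike. All 3 enzymes of serine synthesis were thus higher in S1.

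Of 28 genes of sterol and fatty acid synthesis, 8 were higher in S1 and 6 in S3; the median of 0.05 changed sign with median-of-ratios scaling and differed in sign from the mean of -0.47. Cyp51, the lanosterol demethylase of cholesterol synthesis, was 22.3-fold higher in S3 (15.6 and 347.6 TPM) and Sqle, squalene epoxidase, 7.51-fold (13.6 and 102). Fdps (43.1 and 11.0 TPM), from the same pathway, was higher in S1. For fatty acids, Elovl6, an elongase, was 11.2-fold higher in S3 (7.0 and 78.4 TPM) and Fasn, fatty acid synthase, 5.72-fold (3.9 and 22.3), beside Scd1 above.

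Of 28 genes around cytochromes P450, 13 were higher in S1 and 8 in S3, with a median of 0.47. The vitamin D enzymes Cyp27b1, which activates it (85.0 and 0.1 TPM), and Cyp24a1, which breaks it down (58.5 and 0.1), were both found in S1. Cyp2d26 was 13.4-fold higher in S1 (812 and 60.5 TPM). Cyp2a4, a steroid hydroxylase, was at 0.5 and 938 TPM, Cyp2j11 at 2.6 and 252, and the fatty acid hydroxylase Cyp4a10 at 23.4 and 287. Por, the reductase that feeds all microsomal P450s, was 4.42-fold higher in S3 (179.8 and 794.5 TPM). Cyp2a4 has a near-identical copy, Cyp2a5 (34.4 and 4.9 TPM), so how reads were split between them is uncertain.

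Conjugation genes lay toward S1, with 18 of 31 higher there, 6 in S3 and a median of 1.47. Glyat, which joins glycine to benzoate, was 29.3-fold higher in S1 (605.6 and 20.7 TPM), Gstt1, a glutathione transferase, 29.6-fold (317 and 10.7) and Gsta2 9.88-fold (1300.0 and 131.6), and Ugt2b38, a glucuronosyltransferase, was at 616 and 0.1 TPM. In S3 stood Gstm1, the most abundant transferase there (239 and 3418 TPM), and Ugt3a1 (32.7 and 880.2). Transferase copies of the alpha class and of Ugt1a share sequence, which makes their split uncertain. Of 29 reductases and dehydrogenases, 8 were higher in S1 and 6 in S3, with a median of 0.27. Akr1a1, which makes the vitamin C precursor gulonate, was 6.94-fold higher in S1 (4979 and 718 TPM), and Cbr1, a carbonyl reductase, 12.6-fold higher in S3 (118 and 1481).

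Of 28 genes of glutathione and peroxidases compared, 5 were higher in S1 and 12 in S3, with a median of -0.59. Gpx3, the plasma peroxidase made by the proximal tubule, was 32.8-fold higher in S1 (114421 and 3489 TPM) and the cytosolic Gpx1 7.64-fold (6258 and 819 TPM), whereas Gpx4, which protects membranes, was alike (937 and 1302.5). All 3 synthesis genes were higher in S3: the catalytic and modifier subunits Gclc (37.3 and 490.2 TPM) and Gclm (181 and 976) and the synthetase Gss (234 and 961). Of enzymes that take glutathione and its conjugates apart, Ggct (9.5 and 271 TPM), Lap3 (103 and 355.6) and the aminoacylases Acy1 (51.5 and 1698) and Acy3 (244 and 3104) were higher in S3, but the dipeptidase Dpep1 was 169-fold higher in S1 (422 and 2.5). Nat8f1, an N-acetyltransferase gene, was 2.18-fold higher in S1 (825 and 378 TPM). Among superoxide dismutases the cytosolic Sod1 was 4.51-fold higher in S3 (176.5 and 795 TPM), while the mitochondrial Sod2 (950.2 and 552) differed less than 2-fold.

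Secreted proteins lay toward S3: 17 of 32 were higher there and 7 in S1, with a median of -1.16. Kap, the androgen-regulated kidney protein, was 1694-fold higher in S3 (56.5 and 95736 TPM), and Fgf1, a growth factor, 6.24-fold (26.4 and 164.8). Clu, clusterin (0.8 and 78.5 TPM), and Igf2, a fetal growth factor (0.0 and 56.0), were found in S3. Spp1, osteopontin, was 34.2-fold higher in S1 (4790 and 140.1 TPM), and B2m, the light chain of histocompatibility proteins, 2.54-fold (631 and 248). Cst3, cystatin C (376 and 415 TPM), Vegfa (50.2 and 42.2) and Igfbp7 (3865 and 5286) differed less than 2-fold.

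Of 25 receptors, 4 were higher in S1, 6 in S3 and 15 under 2-fold. Over all genes compared these shares were 11.9%, 14.9% and 73.2%. The median of the receptors, -0.15, changed sign with quantile normalization. Kl, klotho, the co-receptor of the phosphate hormone FGF23, was 43.4-fold higher in S1 (134.6 and 3.1 TPM), and Egfr 3.16-fold (20.2 and 6.4). The growth hormone receptor Ghr was 8.82-fold higher in S3 (176 and 1556 TPM) and the prolactin receptor Prlr 27.8-fold (19.1 and 532). The parathyroid hormone receptor Pth1r (379 and 498 TPM), the angiotensin receptor Agtr1a (39.8 and 32.4) and the insulin receptor Insr (31.9 and 35.6) were under 2-fold. Receptors of 2 pituitary hormones thus stood high in S3, and those of parathyroid hormone, angiotensin and insulin stood alike at both ends.

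Of 29 nuclear receptors and coactivators, 8 were higher in S1, 7 in S3 and 14 under 2-fold; the median was -0.13 and the mean 0.05, which differ in sign. Ppargc1a, a coactivator of mitochondrial genes, was 14.5-fold higher in S1 (53.7 and 3.7 TPM), Rxra, the common partner of lipid-sensing receptors, 4.56-fold (41.0 and 9.0), Ppara, the fatty acid receptor, 4.44-fold (96.7 and 21.8) and Nr1h4, the bile acid receptor, 4.01-fold (117.8 and 29.4). Toward S3 stood the estrogen receptor Esr1 (0.3 and 7.4 TPM), the thyroid hormone receptor Thrb (6.6 and 23.2) and the oxysterol receptor Nr1h3 (51.4 and 128.5). Vdr (79.6 and 87.1 TPM) and Hnf4a (112 and 136) were alike.

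Of 47 other transcription factors, 8 were higher in S1 and 17 in S3, with a median of -0.34. The Iroquois genes Irx1, Irx2, Irx3 and Irx5, which pattern nephron segments, were at 0.3 TPM or less in S1 and at 9.8, 31.0, 20.6 and 6.8 TPM in S3. Foxq1, a forkhead factor, was at 0.2 and 56.5 TPM and Cebpd at 0.6 and 30.7. S1 had Tbx2, a T-box repressor (45.0 and 0.2 TPM), Osr2, an odd-skipped factor (76.9 and 8.8), Maf (19.1 and 2.0) and Id3 (124.7 and 28.3). Its relatives Id1 (22.3 and 89.8 TPM) and Id4 (7.5 and 43.4) were higher in S3, and Cux1 (122 and 107), Klf15 (91.2 and 73.2) and Nfe2l2, the antioxidant regulator (26.2 and 27.3), were even. Clock genes showed 4 of 17 higher in S1 and 2 in S3, with a median of 0.19. Over all genes compared these shares were 11.9% and 14.9%. Per2 (7.5 and 2.7 TPM) was among the clock genes higher in S1, and Bhlhe40 (16.9 and 83.3) and Nfil3 (3.4 and 21.3) were the 2 higher in S3.

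Metal genes lay toward S1, with 9 of 16 higher there, 3 in S3 and a median of 1.26. The metallothioneins Mt1 (595.6 and 146 TPM) and Mt2 (47.8 and 3.4) and the iron oxidase hephaestin (Heph, 9.6 and 0.1) were higher in S1, while the zinc and iron importer Slc39a14 (14.8 and 99.2) and the plasma iron oxidase ceruloplasmin (Cp, 0.5 and 95.8) were higher in S3. The ends thus had different ferroxidase genes. Among stress genes, 13 of 19 were under 2-fold, 1 was higher in S1 and 5 in S3. Over all genes compared these shares were 73.2%, 11.9% and 14.9%. Havcr1, the injury marker KIM-1, was at 0.0 and 4.4 TPM, Vcam1 at 0.6 and 1.9 and Hspa1a at 1.5 and 1.0. Of 27 adhesion and matrix genes, 5 were higher in S1 and 10 in S3, with a median of -0.78. Epcam, an epithelial adhesion protein (0.2 and 107 TPM), Cdh1, E-cadherin (2.2 and 17.2), and the integrin Itgb6 (60.2 and 247.9) were higher in S3. Cdh2, N-cadherin, was at 8.9 and 0.2; each of these cadherins was higher where the other was lower.

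**Figure D3:**
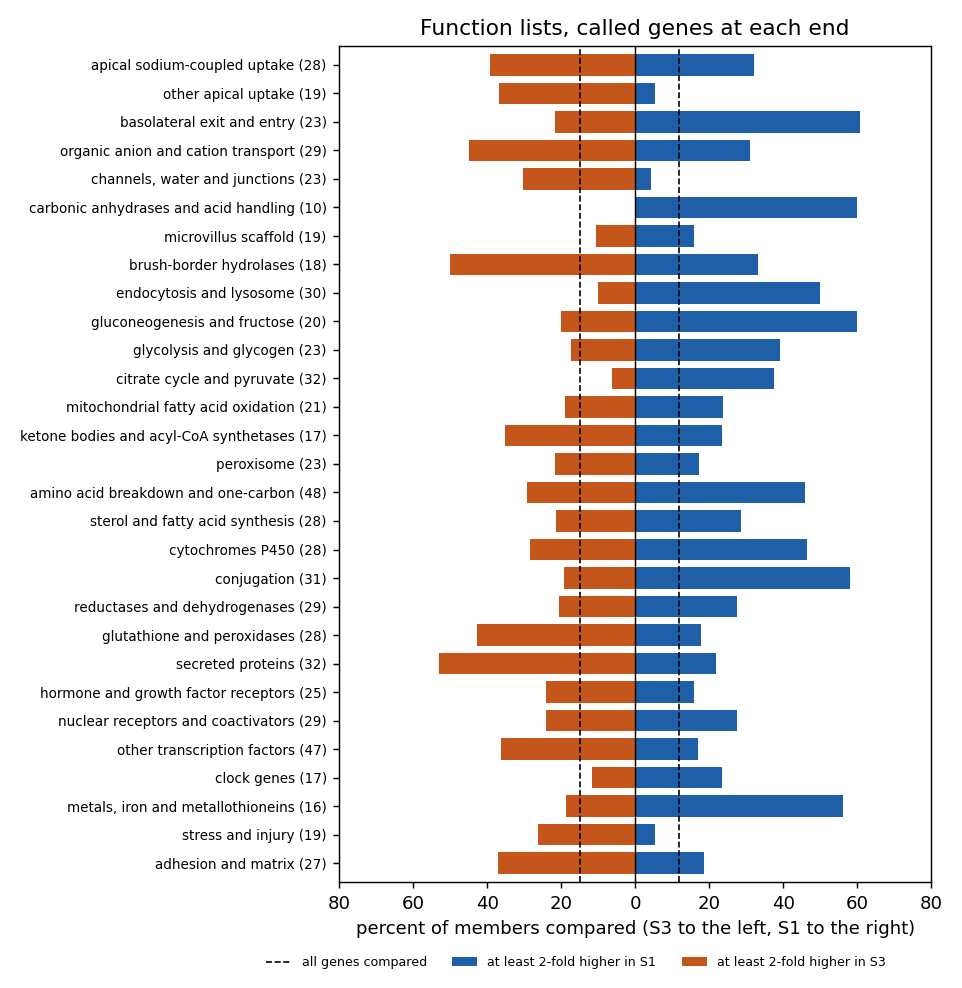
Percent of the compared members of each function list called at least 2-fold higher in S3 (orange, to the left) or S1 (blue, to the right), with the number compared in brackets and dashed lines at the 14.9% and 11.9% of all genes. The basolateral list (14 of 23) reaches furthest to the right. Just short of it are glucose synthesis and fructose (12 of 20) and carbonic anhydrases and acid handling (6 of 10). Secreted proteins (17 of 32) reach furthest to the left.

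Related genes with like activity were compared in pairs. Of 45 pairs chosen with earlier results of these data known, both members were called in 28. The members stood at opposite ends in 14 of these and at the same end in 14; in 14 further pairs 1 member was called, and in 3 neither. Among glucose carriers, apical Slc5a2 (2808 and 0.5 TPM) and basolateral Slc2a2 (223 and 14.4) were higher in S1, and their relatives Slc5a1 (0.1 and 66.7) and Slc2a1 (9.8 and 29.2) were higher in S3. The same held for the neutral amino acid transporters Slc6a19 (874 and 15.7 TPM) and Slc6a18 (5.4 and 1805), the sulfate and dicarboxylate cotransporters Slc13a1 (291 and 2.4) and Slc13a2 (9.6 and 117.1), and the fatty acid-binding proteins Fabp3 (639 and 39.8) and Fabp4 (9.6 and 56.5). Enzyme pairs at opposite ends were the phosphofructokinases Pfkm (23.9 and 3.4 TPM) and Pfkp, and the mitochondrial and cytosolic alanine aminotransferases Gpt2 (45.1 and 8.5) and Gpt. Akr1c21, a hydroxysteroid dehydrogenase, was at 995 and 42.2 TPM, the reverse of Akr1c18. Pairs at the same end included Idh2 (761.5 and 110.5 TPM) with Idh1 and the aspartate aminotransferases Got1 (150.2 and 14.3) and Got2 (167 and 45.2).

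**Figure D4:**
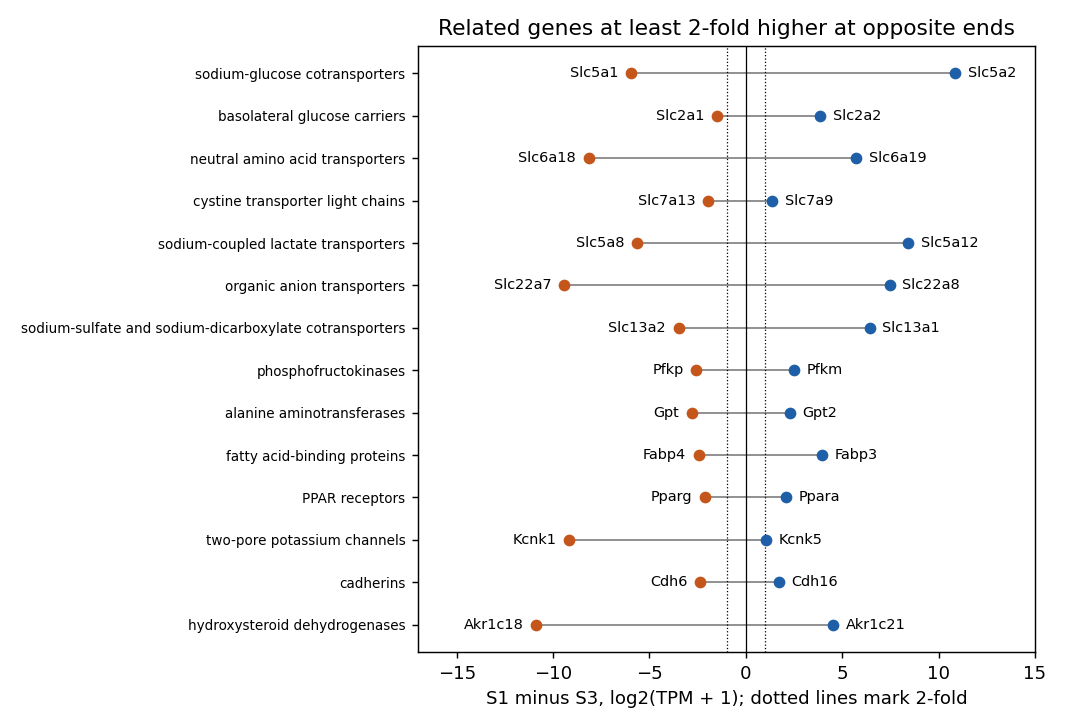
S1 minus S3 difference on log2(TPM + 1) for the 14 pairs of related genes whose members were called at opposite ends, blue for the member higher in S1 and orange for the member higher in S3, with dotted lines at 2-fold. The Slc5a2 and Slc5a1 pair spans from 10.87 to -5.94, and the Akr1c21 and Akr1c18 pair from 4.53 to -10.88.

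Gene families taken by symbol differed in how many of their members were called. At 1 extreme none of 38 proteasome subunits, 1 of 81 mitochondrial ribosomal proteins and 2 of 38 subunits of complex I were called, and of 307 zinc finger proteins 8.14% were. The called complex I subunits were Ndufb8, higher in S3 (2285.5 and 5157 TPM), and Ndufc2, higher in S1 (674 and 301). At the other stood potassium channels with 18 of 19 called, glucuronosyltransferases with 91.7% of 12, aldo-keto reductases with 78.6% of 14 and P450 genes with 71.8% of 39. Most of the called potassium channels were low, and Kcnk1 in S3, Kcnj16 (409 and 98.6 TPM) and Kcnj15 (327 and 125.5) in S1 were the abundant ones. Of 261 solute carriers, 21.5% were higher in S1 and 28.0% in S3, against 11.9% and 14.9% of all genes compared. Of the respiratory subunits known from muscle, Cox6a2 (24.3 and 0.0 TPM) and Cox7a1 (276 and 34.4) were higher in S1 and Cox8b (0.0 and 163.0) in S3.

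Families whose called members were all at S3 included histones, integrins and claudins. Of 29 histone genes, 14 were higher in S3 and none in S1, with a median of -0.98, led by H2afj (163.9 and 514 TPM), Hist1h1c (45.3 and 320.0) and Hist1h4h (27.7 and 151.5); histone copies share sequence, so their split is uncertain. The proliferation gene Mki67 was at 0.1 and 0.2 TPM and Top2a at 0.7 and 1.1. Of 12 integrins, 5 were higher in S3, among them Itgb8 (7.8 and 38.4 TPM) and Itga6 (33.2 and 76.4). Of 27 Hox genes, which carry body-axis position, 7 (25.9%) were higher in S3 and 2 (7.41%) in S1, against 14.9% and 11.9% of all genes compared. The 7 were Hoxa7, Hoxb2, Hoxb5, Hoxb6, Hoxb7, Hoxb8 and Hoxb9, for example Hoxb9 at 3.2 and 27.5 TPM, and the 2 were Hoxa11 (1.5 and 0.1) and Hoxd10 (1.4 and 0.1). Of 17 serpins, 9 were higher in S3 and 4 in S1.

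**Figure D5:**
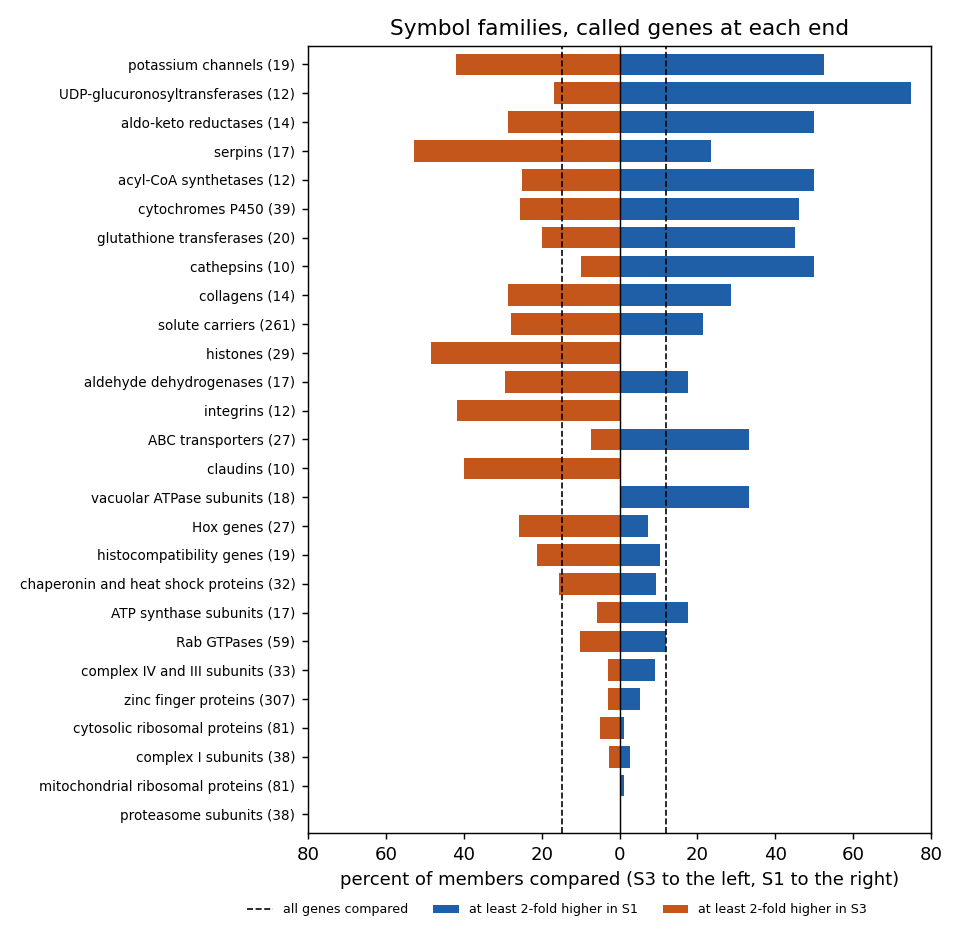
Percent of compared members called at least 2-fold higher in S3 (orange, to the left) or S1 (blue, to the right) for families of 10 or more genes compared, ordered by the share called at either end. Dashed lines mark 14.9% and 11.9%, the shares among all genes; potassium channels are at the top and proteasome subunits, with none called, at the bottom.

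Genes called at the same end also lay side by side. Of 1399 adjacent pairs whose first gene was higher in S1, the next gene was higher in S1 in 19.9%, against 11.9% of all next genes, and for S3 it was 22.6% of 1632 against 13.9%. With symbols of the same stem, such as Slc22a26 and Slc22a27, the shares were 44.6% of 83 pairs and 48.7% of 119, and with different stems 18.3% and 20.6%. Where both neighbours were called, they were at the same end in 647 of 962 pairs, or 67.3%. Adjacent genes are not independent, and no test was made. The pairs above leave out neighbours that overlap, whereas the runs below do not, and no background number of runs was computed. There were 49 runs of at least 4 neighbours called at the same end, 22 for S1 and 27 for S3. The longest had 7 genes of the serpin A cluster on chromosome 12 (103616675 to 103904950, GRCm38.p6), from Serpina10 to Serpina1c, all higher in S3. Serpina1f was at 0.6 and 1416 TPM and Serpina1d at 0.1 and 214; the Serpina1 genes are near-identical copies, so their split is uncertain.

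Other runs held members of 1 family, unrelated genes or both. On chromosome 15 (9279822 to 10349190) Ugt3a1, Ugt3a2 (595 and 1210 TPM), Capsl and Prlr were all higher in S3, and further along (74955025 to 75598213) so were 6 genes from Ly6e to Gpihbp1, among them the membrane proteins Ly6a (90.1 and 627 TPM) and Ly6f (0.2 and 223). On chromosome 13 (23738807 to 23860718) the histone genes Hist1h1c and Hist1h4a adjoined the phosphate and urate carriers Slc17a2 (0.4 and 60.8 TPM) and Slc17a3 (93.6 and 878). On chromosome 19 (3958732 to 4002102) Acy3 lay between Aldh3b2 and Tbx10. Toward S1, B2m, Sord, Shf and Gatm followed each other among the genes compared on chromosome 2 (122147687 to 122611277), and Cdh16, kidney cadherin (1382.5 and 419 TPM), lay in a run of 5 on chromosome 8 (104534694 to 104635841). The glucuronosyltransferases Ugt2b34, Ugt2b37, Ugt2a3 and Ugt2b38 lay in 1 run on chromosome 5 (86889770 to 87424203).

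By chromosome, the X stood apart from the autosomes in its direction. Of 410 genes compared there, 17.6% were higher in S1 and 8.54% in S3, whereas on each autosome except chromosome 6 the share higher in S3 was the greater, and on chromosome 6 the shares were 15.3% and 14.9%. X-linked genes higher in S1 included Cltrn, collectrin, which carries amino acid transporters to the surface (4371 and 1070 TPM), Renbp, a renin-binding epimerase (426 and 77.7), Mpp1 (288 and 34.2), Tceal8 (77.7 and 2.1) and Rtl8c (46.5 and 0.7). X-linked Ebp, of cholesterol synthesis (45.9 and 167 TPM), and Pdk3 were higher in S3. All libraries came from females. In span, the genes higher in S1 were longer: their median was 25.6 kb over 940 genes with at least 10 TPM, against 19.5 kb over 1014 genes higher in S3 and 18.7 kb over 5268 genes under 2-fold.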

How the data were processed

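RNA from dissected tubule segments was amplified as cDNA with the SMARTer V4 kit (10 to 12 PCR cycles); Nextera XT libraries were read in pairs of 50 bases, per the labels' protocols. No molecular identifier or strand marking is named there, so PCR copies may remain and reads of overlapping genes on opposite strands cannot be told apart. The submitters' processing notes list the build mm10 and, among the tools, STAR and RSEM, without saying which step made these values. The gene annotation, and how libraries were combined, are not stated in the sources used. The authors deposited TPM with 1 decimal, as 1 value per gene and segment. The columns sum to 999907 for S1 and 999911 for S3. TPM keeps no depth, and no interval or detection floor was computed.

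Of 8 value columns, 3 match a labelled RNA-seq group, and the comparison is of S1 with S3. The other 5 match none and were not used in any step, and the chromatin samples were not analysed here. With 1 value per group no test could be run. Differences were taken on log2(TPM + 1) in genes with a TPM of at least 1 at either end, with a threshold of 1, in Python 3.11.15 with pandas 2.3.3 and numpy 2.4.6; the code was tested on simulated data. The members and the lists, pairs, families and motifs were chosen with earlier results of these data known, so the counts support nothing independently.

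Named genes are the 5 markers; in each direction the 25 greatest differences among genes with at least 100 TPM at the higher end, passing over Gm and Rik symbols, small RNAs and mitochondrial tRNA and rRNA; for each list, members with the greatest differences and abundant members under 2-fold; pairs; and members of runs of called neighbours. Examples from symbol families and from chromosome X, and cell type markers, were named after their values were seen. A few genes taken by the rule are left out of the text. Symbols are the table's, with 27 restored from dates. Where a symbol has several IDs (203 IDs), the ID with the greater mean stands for it. Coordinates and promoters are RefSeq's for GRCm38.p6, and 13019 of the compared genes matched it. Promoter motifs were not compared between the called sets: the check is void, because only 77.9% of genes higher in S1 and 73.5% of those higher in S3, with at least 10 TPM there, had a promoter in the table, against the 80% needed.

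The alternatives were pseudocounts of 0.1 and 5, a filter of 5 TPM, no filter, quantile normalization, median-of-ratios scaling, rescaling without mitochondrially encoded genes, Gpx3 and Kap, protein-coding genes only, and a 4-fold threshold.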

Additional observations from a re-analysis of the deposited data

How the results depend on the processing

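Across 9 alternatives the share of called genes that were higher in S1 stayed between 41.4% (median-of-ratios scaling) and 48.4% (quantile normalization), against 44.3% as reported (1661 genes in S1, 2089 in S3), and the median of all genes moved by at most 0.07. The counts moved by more than 1.5 times in these cases. With pseudocount 5 there were 879 genes higher in S1 and 1040 in S3, with a 4-fold threshold 588 and 775, and with a filter of 5 TPM 1372 were higher in S3 (1177 in S1). With pseudocount 0.1 the counts of 2110 and 2800 stayed within that range. Leaving out the filter changed neither count, since a called gene must reach 1 TPM. No list median called at 2-fold reversed its sign under the 8 alternatives applied to it; 5 of 29 lists crossed the 2-fold line in at least 1, namely secreted proteins (-0.49) and conjugation (0.74) with pseudocount 5, both of these, carbonic anhydrases (0.86) and metals (0.77) without the filter, and hydrolases, which reached it, under 2 scalings. Of 306 genes named, 19 crossed that line in at least 1 alternative and none reversed; 15 of the crossings came with pseudocount 5. Fxyd2 fell below the threshold under each of the 3 scaling alternatives, and Kcnk5 with pseudocount 5 (0.95) and median-of-ratios scaling (0.99). No replicate could be left out, because the table has 1 pooled value per segment. No paired analysis was possible because the columns carry no replicate numbers and the result comes from no test. The depth behind the TPM values is unknown, so the precision of low genes cannot be stated.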
